A study of Danio rerio with 6 samples.

Results

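The matrix metalloproteinase (Mmp), Adamts and Timp genes of the zebrafish were followed in RNA from animals treated with a gamma-secretase inhibitor. Members were taken by name, as the genes whose symbol starts with mmp and a digit, adamts, or timp and a digit, provided that their read counts over the 6 libraries summed to 10 or more. The deposited data list 25920 genes. Such a name was carried by 49 of them and 48 reached that sum, comprising 24 Mmp genes, 14 Adamts protease genes, 5 Adamts-like genes and 5 Timp genes. The sum is the measured value that chose the members, and it does not use the contrast between the treatments. Just inside the minimum lay mmp25a with a sum of 11 counts, and the gene left out, mmp19, had 3.

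Tg(myl7:mCherry) zebrafish, in which a heart muscle promoter drives a red fluorescent protein, were exposed from 60 hours post fertilization (hpf) and taken at 96 hpf. The control group received the solvent DMSO and the other group received DAPT at 100 µM, and each group has 3 libraries. DAPT inhibits gamma-secretase, the protease complex that cuts Notch receptors and many other membrane proteins. Hearts are the labelled tissue, whereas the series design speaks of embryos, and the labels give neither the number of animals per library nor their clutch. The p-values therefore rest on library-to-library variation that may be no more than technical.

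Mmp enzymes are zinc proteases, most of them made as latent proenzymes, that cut collagens, gelatins, proteoglycans and other proteins outside the cell or, in the membrane-type group, at its surface. Adamts enzymes are secreted relatives with thrombospondin repeats, whose substrates include versican, aggrecan, procollagens and von Willebrand factor, while Adamts-like proteins share the repeats but lack the protease domain. Timp proteins are small secreted inhibitors that bind the catalytic site of these enzymes, and in mammals Timp2 also takes part, together with Mmp14, in the activation of pro-Mmp2. In the developing zebrafish heart, matrix turnover accompanies valve formation, trabeculation and the loss of cardiac jelly.

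Libraries held 20542526 to 20656622 counts with DMSO and 21439366 to 21808573 with DAPT. The quasi-likelihood test of edgeR was run on 22092 genes and called 46.6% of them at an adjusted p of 0.05, of which the rises made up 22.4% and the falls 24.3% of all genes, so a call by itself was common. Differences below are log2 fold changes, DAPT minus DMSO, ± standard error, and levels across libraries are CPM, TMM-scaled counts relative to the library total. Levels of different genes are compared in TPM, a measure of transcript share that is corrected for length. The CPM ratios of paralogues are not corrected for length and serve only to compare the treatments. Markers of heart muscle summed to 3289 to 4188 CPM with DMSO and 7266 to 7622 CPM with DAPT, and 7 of 7 rose, but skeletal muscle markers summed to 9074 to 12159 CPM and epidermal markers to 30109 to 34790 CPM in the DMSO libraries, which goes against a label of hearts alone. Lower with DAPT were 5 of 6 liver, 6 of 6 exocrine pancreas, 6 of 6 retina and 5 of 7 nervous system markers. Also lower were 5 of 8 fibroblast and tendon markers and 5 of 11 macrophage markers, with none higher in either list. Some lists did not fall in this way. Higher were 4 of 6 endothelial and endocardial markers, with 0 lower, and 3 of 4 notochord and gut lining markers, with 1 lower. In the latter list the 3 that rose, fabp2, cdx1b and vil1, are gut genes. The 1 that fell, col8a1a (-0.74 ± 0.11), is the notochord gene. Of 9 skeletal muscle markers 1 was higher and 0 lower. In such mixed RNA a smaller number of cells of one type and less transcript per cell cannot be told apart.

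Among the proteases a pair of genes rose steeply while many of the others fell, and among the inhibitors only rises passed the test. The collagenase gene mmp13a, the gelatinase gene mmp9 and the inhibitor gene timp2b rose by more than 2-fold, and the protease genes mmp20b, mmp23bb and mmp11a fell by more than 2-fold. Of the 48 members 44 had enough counts to be tested. Of these, 8 rose (18.2%, against 22.4% of all genes), 18 fell (40.9%, against 24.3%) and 18 did not pass. Their median log2 fold change was -0.11, against -0.00434 over all genes tested. Rises of at least 2-fold occurred in 3 members and falls of that size in 3, against 2.4% and 5.69% of all genes. One of the falls, that of mmp20b, is in a gene that passed the filter on low counts through the DMSO group alone, and without it 17 of 43 fell and 2 by at least 2-fold. DMSO and DAPT values were fully apart in 27 of the 44, with 8 higher and 19 lower with DAPT. Without mmp20b 18 of 43 were apart and lower. Of all genes 56.8% were apart, 27.8% higher and 29% lower. The 38 proteases had 5 higher (14.3%) and 17 lower (48.6%) among the 35 tested. Without mmp20b 16 of 34 were lower. The 5 inhibitors had 2 higher and none lower among the 4 tested. The calls of 18 of the 26 members held in every one of the 13 alternative analyses in which the gene was tested. They include mmp13a, mmp9, timp2a, timp2b, adamts13 and adamts8a among those that rose. The 18 also include mmp20b, which could enter the test only as a gene with a fall, so that its call held says little. The share of all called genes whose calls held was not computed.

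**Figure D1:**
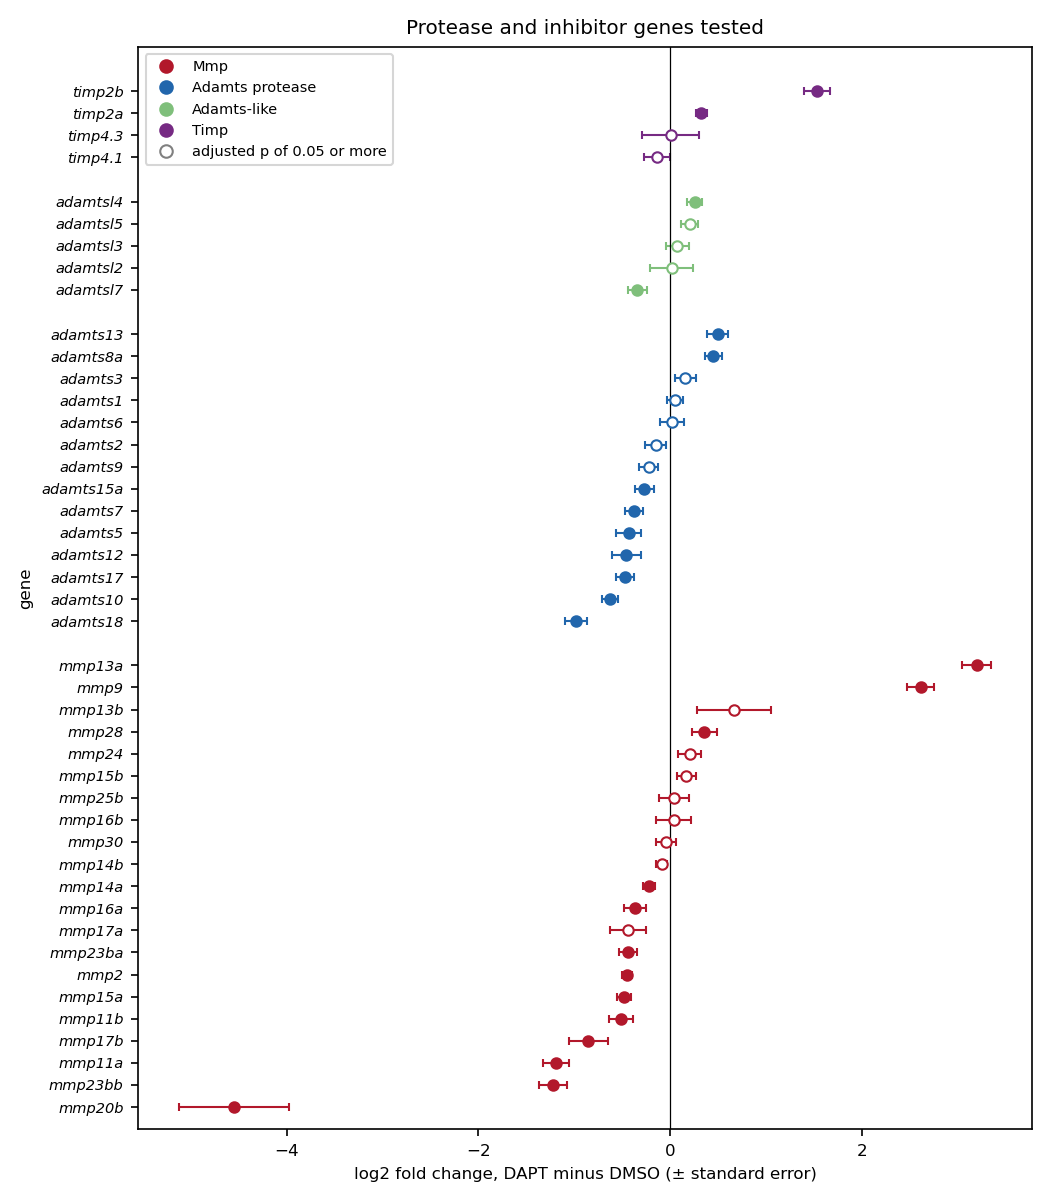
Log2 fold change (DAPT minus DMSO, x axis) with its standard error for each of the 44 members tested, by class; filled points passed an adjusted p of 0.05. The genes mmp13a, mmp9 and timp2b lie far to the right at 3.20, 2.61 and 1.53, and mmp20b far to the left at -4.55, while most other points lie within 1 of zero.

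In the collagenase group, mmp13a (gene ID 387293), which encodes a secreted enzyme that cuts fibrillar collagen, had 33.8, 31.2 and 29.7 CPM in the DMSO libraries and 233, 377 and 261 CPM in the DAPT libraries. The groups were far apart, and DAPT replicate 2 was the highest library. The log2 fold change was 3.20 ± 0.15, a 9.20-fold rise (adjusted p = 2.06e-08), the seventh largest among the 22092 genes tested, and without DAPT replicate 2 it was 2.97. Its paralogue mmp13b stood near the limit of detection, at 0.362 ± 0.105 CPM with DMSO and 0.577 ± 0.182 CPM with DAPT (SD, n = 3). Its value of 0.67 ± 0.39 did not pass (adjusted p = 0.179), and a count that was not whole in 1 library was taken to include reads shared with a similar gene.

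The gelatinase genes mmp9 and mmp2, whose products degrade denatured collagen and basement membrane, moved in opposite directions. For mmp9 (gene ID 406397) the DMSO libraries held 62.0, 58.0 and 48.2 CPM and the DAPT libraries 291, 426 and 312 CPM. As with mmp13a, DAPT replicate 2 was the highest and the groups did not overlap. The log2 fold change was 2.61 ± 0.14, a 6.12-fold rise (adjusted p = 4.09e-08), and 2.43 without DAPT replicate 2. The gene mmp2 (gene ID 337179), known from fibroblasts and other mesenchymal cells, had 192, 196 and 192 CPM with DMSO and 139, 142 and 143 CPM with DAPT. Replicates were tight and the fall of 0.45 ± 0.05 on the log2 scale passed the test (adjusted p = 2.13e-05). On the TPM scale mmp2 was the highest of the 48 members with DMSO, at 115 ± 2.95 TPM against 35.3 ± 3.71 for mmp9 and 33.95 ± 1.45 for mmp13a. With DAPT the order was mmp13a at 279 ± 68.1 TPM, mmp9 at 194 ± 37.5 and mmp2 at 75.1 ± 2.24. The SD intervals of mmp13a and mmp9 overlapped. Within each DAPT library mmp13a was above mmp9, at 225 against 165, 355 against 236 and 256 against 181 TPM. Within single libraries the TPM ratio of mmp9 to mmp2 was 0.268 to 0.343 with DMSO and 2.23 to 3.20 with DAPT.

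Markers of cells in which mmp9, mmp13a or mmp2 is known to be expressed went both ways. Over all genes tested 22.4% rose and 24.3% fell. Of 7 neutrophil markers 1 rose (srgn) and 3 fell (lect2l, lyz and mpx). Their summed level was 145 to 155 CPM with DMSO and 152 to 166 CPM with DAPT. That sum includes srgn, which went from 48.6 to 81.8 CPM, while lyz went from 27.6 to 16.1 CPM and lect2l from 18.3 to 9.34 CPM. Of 11 macrophage markers none rose and 5 fell, and their sum went from 104 to 110.3 CPM down to 85.0 to 90.4 CPM. Osteoclast markers had 1 higher (tnfrsf11a) and 2 lower (dcstamp at -1.50 and calcr at -1.59) of 5. Their sums were 72.0 to 77.1 CPM with DMSO and 87.8 to 88.8 CPM with DAPT. In these sums tnfrsf11a went from 14.5 to 31.1 CPM and was the only gene that rose, and ctsk stood at 54.4 and 54.3 CPM. Epidermal markers had 6 higher and 1 lower of 11, with overlapping sums of 30109 to 34790 CPM with DMSO and 32784 to 34573 CPM with DAPT. Chondrocyte markers, of a cell type known for Mmp13, had 6 higher and 1 lower (acana) of 9. Their median log2 fold change was 0.31. Their sums of 771 to 965 CPM with DMSO and 1052 to 1164 CPM with DAPT were apart. Osteoblast markers had 2 higher and 3 lower of 7 tested, at 51.4 to 56.6 and 41.1 to 46.8 CPM. Fibroblast and tendon markers, beside mmp2, had none higher and 5 lower of 8, with sums of 8263 to 10617 and 6294 to 7927 CPM. Most of these sums came from col1a1a, which went from 8077 to 6024 CPM. The genes pdgfra at 0.01, scxa at 0.20 and tnmd at -0.17 did not pass. No marker of these 7 lists that the table holds was at 0 in all libraries, and the part of any of these cells in the protease values was not tested.

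**Figure D2:**
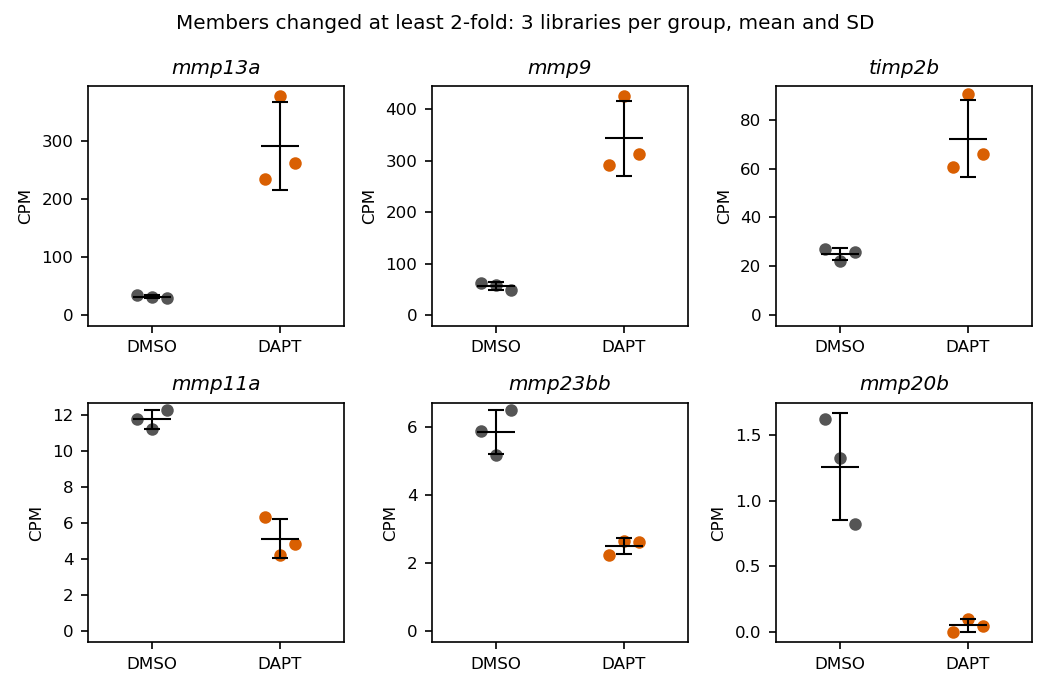
CPM (y axis, linear) in each of the 3 DMSO and 3 DAPT libraries for the 6 members changed at least 2-fold, with the mean as a horizontal line and the SD as whiskers. In each panel the groups are apart, but mmp20b passed the filter on low counts through the DMSO group alone. DAPT replicate 2, the middle orange point, is the highest for mmp13a, mmp9 and timp2b at 377, 426 and 90.4 CPM.

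Membrane-type Mmp genes encode enzymes held at the cell surface by a transmembrane segment or a lipid anchor. None of the 10 tested rose (against 22.4% of all genes) and 4 fell (40.0%, against 24.3%), with a median of -0.16. These shares rest on few genes. The most abundant of them were mmp14b and mmp14a, at 44.8 ± 2.86 and 43.8 ± 0.710 TPM with DMSO, which did not differ beyond their spread. For mmp14a the DMSO libraries held 89.5, 85.9 and 86.8 CPM and the DAPT libraries 79.9, 68.5 and 76.0 CPM. The groups did not overlap, and the log2 fold change was -0.22 ± 0.06 (adjusted p = 0.0118; -0.16 and 0.0606 without DAPT replicate 2). For mmp14b the values were 111, 106 and 116 CPM with DMSO and 105, 104 and 104 CPM with DAPT, which gave -0.09 ± 0.05 and did not pass (adjusted p = 0.211). The clearest fall was that of mmp15a, from 71.7, 75.9 and 75.9 CPM to 56.9, 47.5 and 55.8 CPM (-0.48 ± 0.07, adjusted p = 0.000164), whereas its paralogue mmp15b, at 13.4 ± 1.66 and 15.1 ± 0.887 CPM, had 0.17 ± 0.10 and did not pass. The lipid-anchored enzyme gene mmp17b fell by 0.85 ± 0.21 from the low level of 1.85 ± 0.149 CPM (adjusted p = 0.00487). Its paralogue mmp17a had a value of -0.44 ± 0.19 that did not pass (adjusted p = 0.0737) but did without DAPT replicate 1 (-0.59, adjusted p = 0.0423). The gene mmp16a changed by -0.36 ± 0.12 (adjusted p = 0.024), a call lost without DAPT replicate 1 (adjusted p = 0.0533) or 2 (0.1) and without DMSO replicate 1 (0.0663) or 3 (0.0699). No call was made for mmp16b at 0.04 ± 0.18, mmp24 at 0.21 ± 0.12 or mmp25b at 0.04 ± 0.15, and the last of these includes shared reads. The eleventh gene, mmp25a, was too low to test, with 10 counts in the DMSO group and 1 with DAPT, a ratio of 10.5 whose 95% exact interval for counting error is 1.49 to 456.

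Of the remaining secreted Mmp genes outside the enamelysins, 6 were tested. Of these 1 rose and 4 fell, where 22.4% of all genes rose and 24.3% fell. The stromelysin-3 genes mmp11a and mmp11b, whose mammalian counterpart is activated inside the cell by furin, both fell and to unequal degrees. For mmp11a (gene ID 563753) the libraries held 11.8, 11.2 and 12.3 CPM with DMSO and 6.36, 4.24 and 4.84 CPM with DAPT. The difference was -1.19 ± 0.13 (adjusted p = 1.82e-05). For mmp11b they held 13.1, 11.1 and 11.0 CPM with DMSO and 8.46, 6.88 and 9.36 CPM with DAPT, a change of -0.51 ± 0.12 (adjusted p = 0.00444). Neither pair of groups overlapped. The genes mmp23ba and mmp23bb encode enzymes that in mammals have a domain of their own in place of the usual hemopexin domain. The more abundant, mmp23ba, had 40.9, 41.3 and 32.4 CPM with DMSO and 29.8, 25.9 and 28.8 CPM with DAPT and fell by 0.44 ± 0.09 (adjusted p = 0.00233). The change was larger in mmp23bb (gene ID 550589), from 5.89, 5.18 and 6.48 CPM to 2.25, 2.63 and 2.63 CPM (-1.22 ± 0.15, adjusted p = 3.24e-05).

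The epilysin gene mmp28, known from skin and other epithelia, was the only further Mmp gene that rose, from 12.8, 9.02 and 8.85 CPM to 12.4, 13.6 and 13.3 CPM. Its groups overlapped through DMSO replicate 1, and the log2 fold change was 0.36 ± 0.13 (adjusted p = 0.0398). This call passed in only 1 of the 6 analyses with a library left out: adjusted p was 0.0635, 0.113 and 0.106 without DAPT replicates 1, 2 and 3, and 0.115 and 0.104 without DMSO replicates 2 and 3. The gene mmp30, which was among the 5 highest members with DMSO at 41.5 ± 6.23 TPM, had 47.0, 36.0 and 34.7 CPM with DMSO and 39.4, 36.1 and 38.7 CPM with DAPT and did not pass (-0.04 ± 0.10, and 0.11 without DMSO replicate 1). Of the gene mmp21, too low to test, there were 22 counts with DMSO and 13 with DAPT.

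The enamelysin genes mmp20a and mmp20b are named for a mammalian protease of tooth enamel. In mmp20b (gene ID 100537445) the 3 DMSO libraries held 34, 28 and 18 counts and the 3 DAPT libraries 0, 2 and 1. That is 80 against 3 counts, a ratio of 28.0 after scaling by total counts with a 95% exact interval of 9.24 to 139 for counting error. The fitted log2 fold change was -4.55 ± 0.58 (adjusted p = 5.12e-05), but its size depends on how such low counts are handled, and it was -4.02 to -5.41 with a library left out. This gene passed the filter on low counts through the DMSO group alone, so it could enter the test only as a gene with a difference. Its neighbour mmp20a was not tested, with 20 counts against 12 and a ratio of 1.75 (0.815 to 3.93).

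The Adamts protease genes were expressed at lower levels than the leading Mmp genes, and more of them fell than rose. Of 14 tested 2 rose (14.3%, against 22.4% of all genes) and 7 fell (50.0%, against 24.3%), with a median of -0.25. The count that fell was 4 without DAPT replicate 2 and 4 without DMSO replicate 1. Proteoglycan-cleaving members were split. The most abundant, adamts1, which cuts versican in cardiac jelly in the mouse, stood at 29.0 ± 2.30 TPM with DMSO and 27.0 ± 2.87 TPM with DAPT. Its CPM were 85.0, 73.9 and 69.5 with DMSO and 83.9, 71.0 and 82.0 with DAPT, overlapping throughout, and the difference of 0.05 ± 0.08 did not pass (-0.04 with scaling by library totals alone). The gene adamts8a rose from 19.5, 19.9 and 16.1 CPM to 24.9, 24.9 and 26.1 CPM (0.45 ± 0.09, adjusted p = 0.000979), with counts that include shared reads. The aggrecanase gene adamts5 changed by -0.43 ± 0.13 (adjusted p = 0.0158) and the second most abundant member, adamts15a, went from 23.3, 20.9 and 18.3 CPM to 19.0, 15.6 and 17.3 CPM, which overlap (-0.27 ± 0.10, adjusted p = 0.0453), and adamts9 at -0.22 ± 0.10 did not pass (adjusted p = 0.083). These were weak calls. That of adamts5 was lost without DAPT replicate 1 (adjusted p = 0.0604) or 2 (0.0596) or DMSO replicate 1 (0.0685). That of adamts15a was lost without DAPT replicate 2 (0.178) or 3 (0.117) or DMSO replicate 1 (0.19) or 2 (0.0768), and adamts9 passed without DMSO replicate 2 (-0.28, adjusted p = 0.0456).

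Other Adamts groups held most of the falls. In mammals adamts10, adamts6 and adamts17 act with fibrillin microfibrils. Of these adamts10 went from 22.0, 21.1 and 22.4 CPM to 15.7, 13.3 and 13.5 CPM (-0.62 ± 0.08, adjusted p = 7.11e-05). The gene adamts17, the third of the class by level at 8.44 ± 0.813 TPM with DMSO, went from 55.4, 54.6 and 44.7 CPM to 36.8, 33.96 and 40.9 CPM (-0.47 ± 0.09, adjusted p = 0.0011). No such fall was seen in adamts6, at 6.46 ± 0.702 and 6.57 ± 0.744 CPM (0.02 ± 0.13, and -0.07 with library totals alone). Enzymes known to cut cartilage oligomeric matrix protein are encoded by adamts7, which changed by -0.38 ± 0.09 (adjusted p = 0.00542), and adamts12, which changed by -0.46 ± 0.15 (adjusted p = 0.0241). The adamts12 groups overlapped, and its call was lost without DAPT replicate 2 (adjusted p = 0.0873) or 3 (0.0931) or DMSO replicate 1 (0.103) or 2 (0.0541).

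The deepest fall in the class was that of adamts18 (gene ID 100150128), from 14.4, 12.2 and 16.0 CPM to 7.74, 7.03 and 6.86 CPM. The groups were well apart, and the log2 fold change was -0.98 ± 0.11 (adjusted p = 2.60e-05). In contrast adamts13 rose from 11.0, 11.7 and 9.03 CPM to 14.1, 16.6 and 14.1 CPM (0.50 ± 0.11, adjusted p = 0.00295). Its human counterpart cuts von Willebrand factor and is made largely in the liver. Liver markers summed to 4100 to 4854 CPM with DMSO and 2269 to 2356 CPM with DAPT. The part of liver cells in the adamts13 values was not tested. The procollagen N-proteinase genes adamts2 and adamts3, whose products trim fibrillar procollagens or, for mammalian Adamts3, the growth factor Vegfc, did not pass at -0.15 ± 0.11 and 0.16 ± 0.11, and adamts3 includes shared reads.

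Adamts-like genes changed little. The gene adamtsl4, at 18.7 ± 1.72 TPM with DMSO the most abundant of the 5, rose from 47.4, 47.8 and 39.2 CPM to 56.4, 49.6 and 54.4 CPM (0.26 ± 0.08, adjusted p = 0.0215), and adamtsl7 changed by -0.34 ± 0.10, from 21.6, 19.0 and 16.7 CPM to 15.9, 15.5 and 13.9 CPM (adjusted p = 0.0143). Although the groups did not overlap in either gene, neither call held in every analysis with a library left out, where fewer replicates remain. That of adamtsl4 was lost without DAPT replicate 1 (adjusted p = 0.0942) or 3 (0.077) or DMSO replicate 3 (0.0516), and with library totals alone (0.16, adjusted p = 0.106). That of adamtsl7 was lost without DAPT replicate 3 (0.0772) or DMSO replicate 1 (0.0685). For adamtsl5 the value of 0.20 ± 0.09 did not pass (adjusted p = 0.0867) but did without DMSO replicate 1 (0.27, adjusted p = 0.0445). The genes adamtsl3 and adamtsl2, the latter at only 0.850 ± 0.131 TPM with DMSO, had 0.07 ± 0.12 and 0.02 ± 0.22.

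Among the inhibitors both timp2 genes rose and the timp4 genes did not. The gene timp2b (gene ID 406650) had 27.1, 22.0 and 25.7 CPM with DMSO and 60.6, 90.4 and 65.9 CPM with DAPT. DAPT replicate 2 was again the highest library, as for mmp13a and mmp9, and the groups did not overlap. The log2 fold change was 1.53 ± 0.13, a 2.90-fold rise (adjusted p = 2.36e-06), and 1.34 without that library. Its paralogue timp2a (gene ID 359835) rose less, from 84.2, 88.0 and 86.9 CPM to 109, 105 and 111 CPM (0.33 ± 0.05, adjusted p = 0.00032). On the TPM scale timp2a was the second highest member with DMSO, at 49.0 ± 2.07, where timp2b stood at 14.8 ± 1.48. With DAPT the pair stood at 55.2 ± 2.71 and 38.5 ± 7.76 TPM. The share of timp2b in all Timp TPM was 18.6 to 21.9% in the DMSO libraries and 34.7 to 44.4% in the DAPT libraries.

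The timp4 genes were low. The gene timp4.1 had 7.70, 7.27 and 6.52 CPM with DMSO and 5.45, 7.66 and 6.49 CPM with DAPT (-0.13 ± 0.13, adjusted p = 0.445), and timp4.3 had 1.11 ± 0.409 and 1.12 ± 0.230 CPM (0.01 ± 0.29, adjusted p = 0.99). In timp4.2 each of the 3 DMSO libraries held 8 counts and each of the 3 DAPT libraries 0. Against a floor of 3 counts over the DAPT group that is at least 8.40-fold lower. The gene was below the filter on low counts and was not tested there. All its counts were in the DMSO group, so with no filter it could enter the test only as a gene with a fall. In that run its adjusted p was 0.00094, and no other Timp gene was called lower.

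Summed protease transcripts were higher with DAPT when mmp9 and mmp13a were counted and lower when they were not. Over all 38 proteases the sum was 536, 514 and 510 TPM in the DMSO libraries and 736, 908 and 788 TPM in the DAPT libraries. The genes mmp9 and mmp13a made up 12.5 to 13.8% of it with DMSO and 52.9 to 65.2% with DAPT. Without them the other 36 proteases summed to 462, 444 and 446 TPM with DMSO and 346, 316 and 351 TPM with DAPT, which was lower in each DAPT library than in any DMSO library. Timp transcripts summed to 71.7, 70.6 and 73.6 TPM with DMSO and 93.1, 106 and 100.4 TPM with DAPT, and without timp2b to 56.0 to 57.9 and 59.0 to 64.5 TPM. Set against each other within a library, proteases exceeded inhibitors 6.93 to 7.47 times with DMSO and 7.85 to 8.55 times with DAPT. Without mmp9 and mmp13a that ratio was 6.07 to 6.45 with DMSO and 2.98 to 3.72 with DAPT. With the risen inhibitor gene timp2b left out as well, it was 7.70 to 8.26 with DMSO and 5.36 to 5.69 with DAPT. The genes left out were chosen because they rose, so these ratios are descriptions. TPM values were not TMM-scaled, but ratios within a library do not depend on scaling. The TMM factors were 1.02 to 1.06 with DMSO and 0.956 to 0.976 with DAPT. Falls with DAPT in the sums are therefore larger, and rises smaller, than in scaled values. These sums are descriptions of transcripts, not of enzyme activity.

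**Figure D3:**
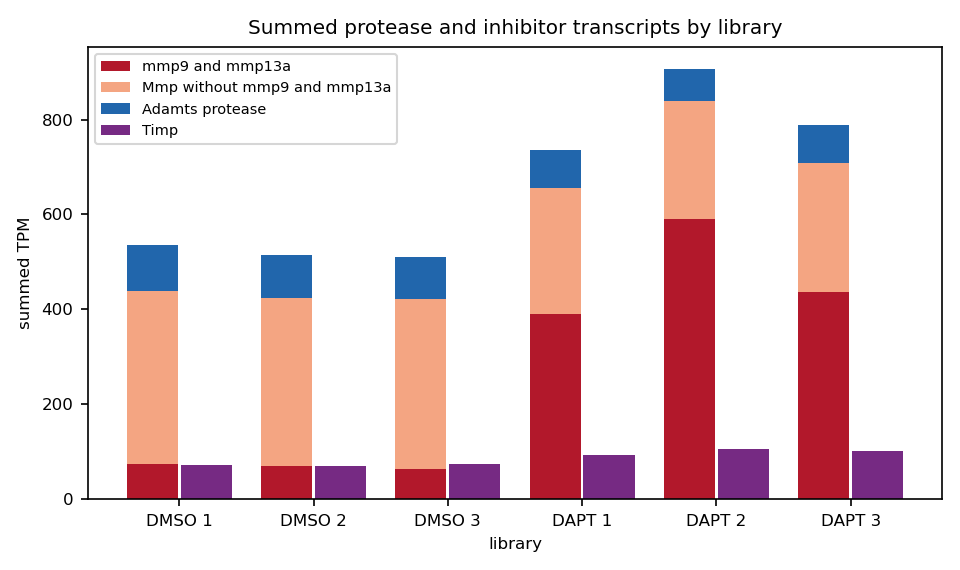
Summed TPM (y axis) in each of the 6 libraries (x axis), with proteases as stacked bars and Timp genes as the bar beside them. The dark red part, mmp9 and mmp13a, grows from 63.9 to 73.7 TPM with DMSO to 389 to 591 TPM with DAPT, while the other parts of the protease bar are smaller with DAPT. TPM values were not TMM-scaled, which makes falls with DAPT larger than in scaled values.

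Paralogues did not always share a call. With 46.6% of all genes called in either direction, a pair with just 1 called gene is common among any genes. The share of such pairs over all genes was not computed. Zebrafish carry 10 pairs among the members, of which 8 had both genes tested. Both genes fell in 2 of these pairs (mmp11a and mmp11b, mmp23ba and mmp23bb), both rose in 1 (timp2a and timp2b), and in the other 5 just 1 gene passed. A call in just 1 gene of a pair does not show that the genes differ. Within libraries the log2 CPM ratio of mmp15a to mmp15b was 2.30 to 2.72 with DMSO and 1.74 to 1.88 with DAPT, without overlap. For mmp23ba and mmp23bb its mean was 2.71 with DMSO and 3.49 with DAPT, and for timp2a and timp2b 1.80 and 0.61, also without overlap. For mmp14a and mmp14b it overlapped, at -0.42 to -0.30 and -0.60 to -0.39, as it did for mmp17a and mmp17b. These differences were not tested. In the GRCz12tu annotation of RefSeq, where 47 of 48 members were found by gene ID, mmp13a and mmp30 have 1 coding gene between them, and adamts8a lies beside adamts15a, adamts1 beside adamts5, mmp20a beside mmp20b, and timp4.2 between timp4.1 and timp4.3. The log2 fold changes were 3.20 and -0.04 for mmp13a and mmp30, 0.45 and -0.27 for adamts8a and adamts15a, and 0.05 and -0.43 for adamts1 and adamts5. In the remaining groups mmp20a and timp4.2 were not tested, and both had fewer counts with DAPT than with DMSO.

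**Figure D4:**
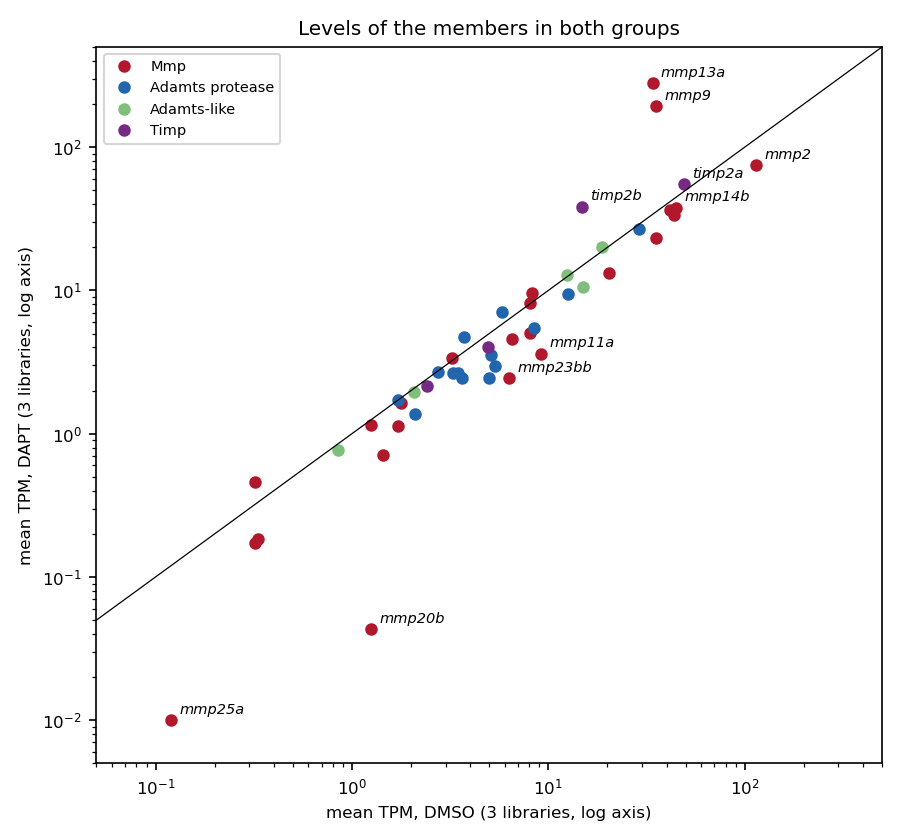
Mean TPM with DMSO (x axis) against mean TPM with DAPT (y axis), both log axes, for 47 of the 48 members; the line marks equal levels, and timp4.2, which has no counts with DAPT, is not drawn. The genes mmp13a and mmp9 lie far above the line, at 279 and 194 TPM with DAPT, and mmp2, the highest with DMSO at 115 TPM, lies below it. TPM values were not TMM-scaled, so the side of a point near the line can differ from its log2 fold change. For example, adamts1 lies below it at 29.0 and 27.0 TPM but has a value of 0.05.

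Genes that act on or with these enzymes were read from lists chosen by function. The counts in these lists, here and below, stand against 22.4% of all genes higher and 24.3% lower. In the list of activators of latent proteases 5 of 13 tested rose and 5 fell. The rises include hgfa (0.46 ± 0.14), which encodes a growth factor and is not an activator. The plasminogen gene plg, a liver gene whose product cuts several proenzymes, went from 80.5 ± 5.57 to 38.6 ± 0.853 CPM (-1.06 ± 0.06, adjusted p = 1.25e-07). The proprotein convertase gene pcsk5a rose from 5.78 ± 0.817 to 12.6 ± 0.0396 CPM, the cathepsin B gene ctsba rose by 0.43 ± 0.05 and the meprin gene mep1a.2 changed by -0.99 ± 0.14. The list of other inhibitors had 4 higher and 8 lower of 15 tested, but 6 of these genes encode collagen chaperones or enhancers of procollagen C-proteinase. Of the 9 that encode protease inhibitors 5 fell, among them the antiplasmin genes serpinf2b and serpinf2a at -1.07 ± 0.06 and -1.54 ± 0.15. Of the 6 others 3 rose and 3 fell, with the chaperone genes serpinh1b and serpinh1a at 0.66 ± 0.08 and -0.48 ± 0.06. In the related Adam family 7 of 14 rose and 4 fell, led by adam8b, which went from 14.7 ± 1.00 to 28.1 ± 1.48 CPM (0.93 ± 0.08). The sheddase gene adam10a rose by 0.25 ± 0.05, while adam23a and adam11 changed by -0.32 ± 0.06 and -0.79 ± 0.18. Of 9 astacin and tolloid protease genes tested 2 rose and 5 fell, with a median of -0.94. The lowest was c6ast4 at -3.52 ± 0.12, followed by c6ast3 at -2.11 ± 0.26 and the tolloid gene bmp1b at -1.72 ± 0.15. Its paralogue bmp1a rose, from 102 ± 8.53 to 129 ± 10.7 CPM (0.34 ± 0.08), where bmp1b had 5.54 ± 0.121 CPM with DMSO. Counts of plg, pcsk5a and mep1a.2 include shared reads.

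Substrate genes were mixed. The largest change among those named was in vcana, which encodes versican, a cardiac jelly proteoglycan cut by several Adamts enzymes. It had 35.8, 40.8 and 35.7 CPM with DMSO and 119, 131 and 113 CPM with DAPT. The groups were far apart, and the log2 fold change was 1.70 ± 0.07 (adjusted p = 9.44e-09). The other versican gene, vcanb, which was added after its values were seen, went the other way, from 296 ± 26.7 to 235 ± 7.79 CPM (-0.34 ± 0.07, adjusted p = 0.00194). The list of these genes, that of proteoglycan and adhesion substrates, had 7 higher and 4 lower of 13, with the link protein gene hapln1b at 0.65 ± 0.08, the aggrecan gene acana at -0.49 ± 0.08 and comp at -0.68 ± 0.06. Of 15 fibrillar collagen genes 3 rose and 5 fell, col2a1a going from 408 ± 64.7 to 544 ± 22.9 CPM (0.42 ± 0.10) and col5a2a from 555 ± 47.8 to 385 ± 23.4 CPM (-0.53 ± 0.07), with col11a1b at -0.48 ± 0.06 and col11a2 at 0.47 ± 0.11. Basement membrane genes had 5 higher and 5 lower of 15, with the nidogen gene nid1a at -0.49 ± 0.07, the laminin gene lamb1b at -0.44 ± 0.06, the collagen IV gene col4a2 at -0.32 ± 0.06 and the perlecan gene hspg2 at 0.28 ± 0.05. Among partners in collagen and fibrillin assembly 3 of 11 rose and 4 fell. The elastin gene elna, the fibrillin gene fbn1 and ltbp1, for a latent TGF-beta binding protein, changed by -0.73 ± 0.12, -0.34 ± 0.09 and -0.27 ± 0.06, and the lysyl oxidase-like gene loxl2a rose by 0.45 ± 0.07.

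The docking and clearance list had 3 higher and 3 lower of 9. Its gene bsg, which encodes basigin, an Mmp inducer in mammals, rose by 0.31 ± 0.05, and cd44a, for a hyaluronan receptor that can hold Mmp9 at the mammalian cell surface, by 0.89 ± 0.18. Endocytic receptor genes went both ways, lrp1ab at 0.32 ± 0.07 and lrp1ba at -0.55 ± 0.12. Of AP-1 and cytokine genes known in mammals to induce Mmp genes, 9 of 16 tested rose and 2 fell, with a median of 0.20. The sums of this list overlapped, at 3877 to 4197 CPM with DMSO and 4111 to 4356 CPM with DAPT. The transcription factor gene stat3 went from 70.6 ± 2.45 to 147 ± 5.38 CPM (1.05 ± 0.06), jun rose by 0.70 ± 0.07 and the cytokine gene il11a by 1.21 ± 0.11, while the AP-1 gene fosb changed by -1.24 ± 0.07. The other gene that fell was the cytokine gene tnfb, at -1.29 ± 0.14. The part of any of these genes in the values of mmp9 and mmp13a was not tested. Counts of hspg2, comp, hapln1b, vcanb, ltbp1 and col5a2a include shared reads.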

How the data were processed

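The deposited table gives read counts, FPKM and TPM per library. About 15.2 to 16.0% of the deposited counts are not whole, so they were read as estimated counts and rounded, and such values were taken to include reads shared between similar genes. TPM and FPKM were calculated by the authors. TPM served to compare genes and to show summed and mean levels, and FPKM and the deposited group means were not used. The tools used were STAR 2.7.1a, edgeR and featureCounts 1.6.0 with build GRCz11, per the submitters' processing notes, which name no roles; annotation and strand setting are not given in the sources used here. With no stated strand, overlapping genes cannot be told apart.

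The test was the quasi-likelihood F test of edgeR 4.0.16 (R 4.3.3) after filterByExpr and TMM scaling, with 4 residual degrees of freedom and a Benjamini-Hochberg threshold of 0.05 across 22092 genes. The script was tested on simulated data in which few genes changed. That setting does not cover data in which 46.6% of genes are called. Alternatives were DESeq2 1.42.0, limma-voom (limma 3.58.1), other scalings and filters, the replicate number as a block, and leaving out each library. Intervals and floors on counts cover counting error only. The members and gene lists were chosen with earlier results of these data known. Members described one by one were the Timp genes, those changed at least 2-fold, the 3 most abundant of each class and those nearest the count minimum; the others were then given to account for each subfamily. From each pathway list up to 4 genes with the smallest p were named. The genes vcanb, tnfb, bmp1a and hgfa were added after their values were seen. Replicate libraries correlated at 0.989 to 0.994 over genes, and no replicate pair agreed within counting noise.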

Additional observations from a re-analysis of the deposited data

How the results depend on the processing

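Counts of members called ranged from 6 to 9 higher and from 13 to 21 lower over the 13 alternatives, against 8 and 18, so neither moved by over 1.5 times. Scaling by library totals alone moved the median log2 fold change over genes by -0.098 and left 32.5% of all calls higher, against 48.0%; of members 6 were then higher and 21 lower, and mmp14b (-0.19, adjusted p = 0.021), adamts9 (-0.32, 0.023) and mmp17a (-0.53, 0.0329) passed. In the same setting no Adamts-like gene was called higher (0, against 1). With no filter on low counts 1 Timp gene, timp4.2, was lower, since only then was it tested. All its counts were in the DMSO group. With a library left out, the count of Adamts protease genes called lower was 4 to 7, that of Adamts-like genes called higher 0 to 2 and called lower 0 to 1. The call of adamts15a was also lost with DESeq2 size factors (adjusted p = 0.0502), the DESeq2 Wald test (0.0737) and limma-voom (0.0525), those of adamts5 (0.0554) and mmp16a (0.0577) with the DESeq2 Wald test, and that of mmp28 with library totals (0.108) and the stricter filter of 5 CPM in 3 libraries (0.0558), which left 8 members untested. The cause was not tested.

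Changes of sign occurred in 8 members, none of them called in the main analysis or where its sign changed. With library totals alone the log2 values were -0.0739 for adamts6, -0.0429 for adamts1, -0.0829 for adamtsl2, -0.022 for adamtsl3, -0.0601 for mmp16b, -0.0553 for mmp25b and -0.0912 for timp4.3, and with the stricter filter -0.0011 for adamts6. With a library left out they ranged from -0.0665 to 0.105 for adamts6, -0.00958 to 0.14 for adamts1, -0.149 to 0.169 for adamtsl2, -0.0149 to 0.126 for adamtsl3, -0.0683 to 0.118 for mmp16b, -0.0313 to 0.127 for mmp25b, -0.124 to 0.108 for mmp30 and -0.175 to 0.336 for timp4.3.

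Same-numbered libraries of the groups did not deviate together (correlations of their deviations over genes were 0.009, -0.068 and -0.026), so the number was taken as a name only. With the replicate number as a block 4655 genes were higher and 5061 lower, against 4940 and 5362, and 8 members were higher and 18 lower. Depth limits the genes with few counts: mmp20a, mmp21, mmp25a and timp4.2 could not be tested with the filter.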
